A study of Mus musculus with 4 samples.

Results

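The Glis and Zic genes encode transcription factors whose C2H2 zinc fingers resemble those of the GLI proteins, the effectors of Hedgehog signalling. The 7 genes described here were Glis1, Glis2, Glis3, Zic1, Zic2, Zic4 and Zic5, of 24982 genes in the count table. They were chosen by family name, with their levels and fold changes in these same libraries already known. Their values in the comparison are therefore a description and carry no test of their own. All 7 had a row in the table and passed the filter on low counts, as did 14235 genes in all.

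The data were RNA-seq counts from mouse forebrain dissected at E10.5. The conditional knockout (cKO) group held 2 libraries of the genotype Sox1 cre+/-; Chd7 f/f, in which a Cre recombinase named for the neural progenitor gene Sox1 acts on a pair of floxed alleles of Chd7, a chromatin remodeller gene. The control group held 2 libraries labelled Chd7 +/f, which carry 1 floxed allele beside a wild-type one, with no Cre listed. Effects of the Cre allele and of Chd7 loss cannot be told apart, and Chd7 is measured over the whole tissue, cells that Cre did not reach included. Whether 1 embryo or a pool gave each library is not in the labels, so the spread between libraries may be technical.

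GLIS proteins both activate and repress transcription from G-rich sites. GLIS3 is known for its roles in the pancreatic beta cell and the thyroid, GLIS2 for the kidney, where its loss causes nephronophthisis, and GLIS1 for promoting reprogramming to pluripotency. ZIC proteins mark the dorsal midline of the neural tube and its roof plate. Mutations of ZIC2 cause holoprosencephaly, a failure of the forebrain to divide, and loss of ZIC1 and ZIC4 together has been tied to malformation of the cerebellum. The Zic genes lie in the genome as head-to-head pairs, Zic1 beside Zic4 and Zic2 beside Zic5.

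RefSeq promoter windows were matched for 5 of the 7 genes, Glis1, Glis3, Zic1, Zic4 and Zic5. Each runs from 250 bases before the annotated start to 50 bases after it. Those of the gene with the largest fold change, Glis3, and of 3 Zic genes are shown, because the Zic genes lie in pairs and all had positive fold changes. Capitals mark CpG dinucleotides, the sites of DNA methylation, which cluster at many developmental gene promoters. The windows are, in GRCm38.p6, chr19:28680028-28680327 (minus strand) for Glis3, chr9:91365719-91366018 (minus strand) for Zic1, chr9:91368722-91369021 (plus strand) for Zic4 and chr14:122465609-122465908 (minus strand) for Zic5.
Glis3: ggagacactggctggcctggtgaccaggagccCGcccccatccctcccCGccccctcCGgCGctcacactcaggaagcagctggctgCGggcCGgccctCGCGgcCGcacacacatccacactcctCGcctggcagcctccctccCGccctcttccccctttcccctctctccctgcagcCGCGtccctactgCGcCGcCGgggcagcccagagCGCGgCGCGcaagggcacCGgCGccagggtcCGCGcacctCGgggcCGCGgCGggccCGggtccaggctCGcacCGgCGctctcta
Zic1: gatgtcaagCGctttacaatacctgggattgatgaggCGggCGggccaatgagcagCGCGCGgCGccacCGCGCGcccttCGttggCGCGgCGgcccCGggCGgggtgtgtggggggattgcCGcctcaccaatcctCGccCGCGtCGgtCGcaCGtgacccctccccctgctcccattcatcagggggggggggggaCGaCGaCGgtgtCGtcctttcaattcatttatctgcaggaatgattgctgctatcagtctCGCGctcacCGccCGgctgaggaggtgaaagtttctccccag
Zic4: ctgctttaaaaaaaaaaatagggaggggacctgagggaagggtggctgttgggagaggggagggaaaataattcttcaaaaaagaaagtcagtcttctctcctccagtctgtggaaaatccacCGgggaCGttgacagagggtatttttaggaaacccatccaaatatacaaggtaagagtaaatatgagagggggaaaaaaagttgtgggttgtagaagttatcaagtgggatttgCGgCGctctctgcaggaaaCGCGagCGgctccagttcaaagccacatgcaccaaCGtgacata
Zic5: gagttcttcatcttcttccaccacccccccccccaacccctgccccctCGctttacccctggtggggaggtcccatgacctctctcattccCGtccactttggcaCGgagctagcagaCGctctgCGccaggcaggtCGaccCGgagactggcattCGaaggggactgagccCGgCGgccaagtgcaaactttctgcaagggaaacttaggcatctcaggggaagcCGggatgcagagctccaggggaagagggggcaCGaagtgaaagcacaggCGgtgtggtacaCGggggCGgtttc

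The Glis3 window held 32 CpG and 76.3% G or C, and the Zic1 window held 31 CpG and 65.3% G or C. The Zic5 window held 15 CpG and 62.7% G or C, while the Zic4 window held 8 CpG and 46% G or C. The Glis1 window, not shown, held 47 CpG, more than 98.6% of the 32851 windows in the table, whose median was 7 CpG. The 4 windows shown thus run from CpG-dense, in Glis3 and Zic1, to near the genome median, in Zic4. The window of Zic4 surrounds only 1 of its annotated starts, since the gene's span begins upstream of it. The same holds for the window of Glis1. The span of Glis3 begins inside its window, at 28680265, upstream of the start that the window was set on. In all windows, 3 short motifs were searched on both strands, the GLI core CCACCCA, the ZIC core CCTGCTG and the GLIS core TGGGGGGT. None of them was found in any of the 5 windows, against 9.30%, 10.51% and 1.53% of all windows. That says only that these exact letters are not in these windows.

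The count totals ran from 16581252 to 17096522 per library. Chd7 stood at 136 and 132 CPM (counts scaled to 1 common library total, with a correction for library composition) in cKO libraries, against 339 and 345 CPM in control libraries. Markers of other tissues differed between libraries, within groups and between them. Summed CPM of 15 neural crest and head mesenchyme genes were 1074 and 685 in cKO replicates 1 and 2, against 1039 and 1174 in control replicates 1 and 2. Sums for 8 hypothalamic and ventral midline genes were 35.3 and 84.4 in the same cKO replicates, against 54.3 and 116 in the controls. Sums for 6 midbrain and caudal roof genes were 54.0 and 55.6 in cKO libraries, against 22.3 and 38.7 in control libraries. Erythroid sums were 1887 and 1778 in cKO libraries, against 2849 and 3068 in control libraries, and 6 of 6 tested erythroid genes were called lower. Sums for 8 endothelial genes were 258 and 256 in cKO libraries, against 306 and 295 in control libraries. Those for 8 surface ectoderm genes were 157 and 140 in cKO libraries, against 111 and 126 in control libraries, and those for 7 eye primordium genes were 27.6 and 23.7 in cKO libraries, against 15.0 and 22.8 in control libraries. In edgeR, 5 of the endothelial genes were lower and 1 higher at an unadjusted p under 0.05. By the same threshold 1 surface ectoderm gene, 1 eye primordium gene and 3 of 4 tested midbrain and caudal roof genes were higher. In the neural crest and head mesenchyme list 4 genes were lower, and in the hypothalamic and ventral midline list 2 were, with 0 higher in either. Foxd1, a gene of both these lists, was called lower (log2 fold change -0.86, edgeR adjusted p = 0.0132). The forebrain identity markers Six3 and Otx2 were present in every library. The part of these differences in the values below was not tested. Leaving out a library does not test it, since the erythroid and endothelial sums of both cKO libraries lay below those of both controls.

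Across the 7 genes, the fold changes were positive and unequal. The fold change of cKO over control was 3.51 for Glis3, 2.32 for Glis1, 1.12 to 1.41 for the 4 Zic genes and 1.04 for Glis2. Glis3, Zic2 and Zic5 were among the genes called higher by edgeR's quasi-likelihood test, with p-values adjusted over all genes and a threshold of 0.05. By edgeR and by DESeq2, 0 of the 7 were called lower, and 0 had a negative fold change. Of all genes tested, 1.57% were called higher and 2.13% lower. Because the genes were chosen knowing this contrast, nothing is read from the share. In 6 of the 7 genes both cKO libraries lay above both control libraries, an order found in 24.3% of all genes tested. The median log2 fold change of the 7 was 0.38, and that of all genes tested was -0.00028.

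**Figure D1:**
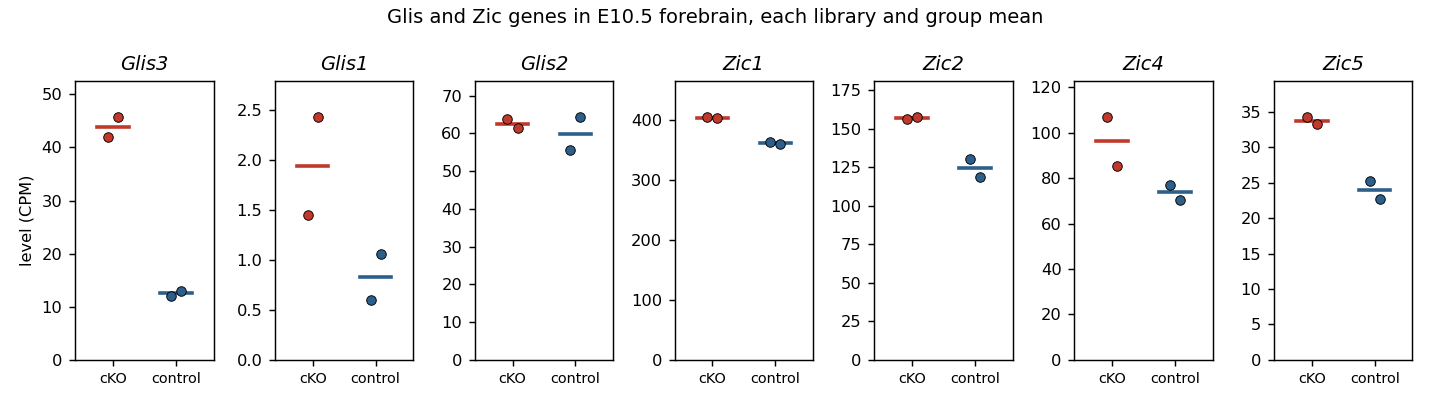
Level of each gene in CPM, with a separate axis from 0 for each gene; points are the 2 libraries of a group and the bar is their mean, cKO on the left and control on the right. The cKO points of Glis3, at 42.1 and 45.7 CPM, stand far above its control points at 12.1 and 12.9 CPM, the Zic genes show smaller gaps, and the groups overlap for Glis2.

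**Figure D2:**
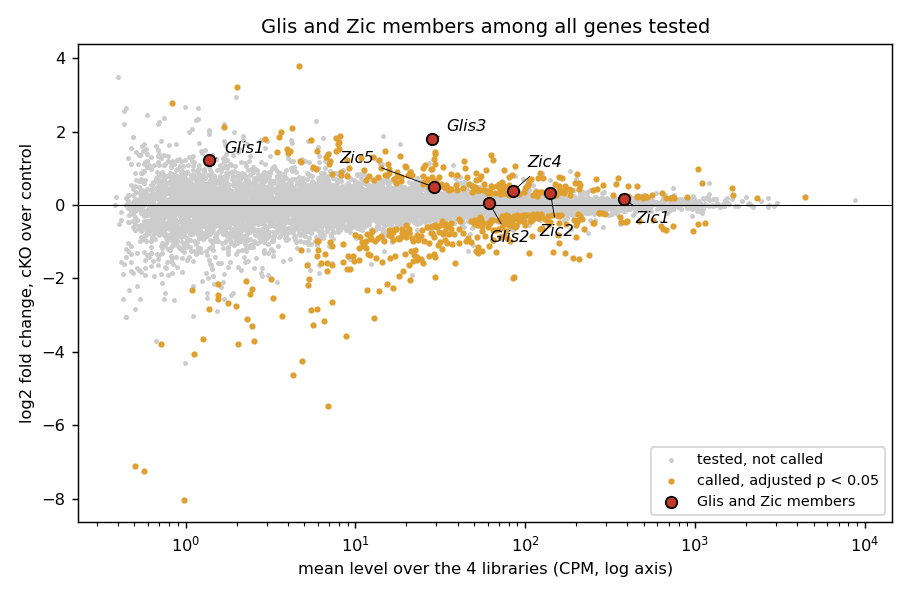
Log2 fold change of cKO over control against mean level over the 4 libraries (CPM, log axis) for the 14235 genes tested; grey points were not called, orange points were called at an adjusted p under 0.05, and red points are the 7 Glis and Zic genes. Glis3 stands among the strongest increases at its level, at a log2 fold change of 1.81, while the Zic genes lie within 0.50 of 0. Zic5 has nearly the same mean level as Glis3, and Zic1, Zic2 and Zic4 lie at higher levels.

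Among the Glis genes, Glis3 (GRCm38 chromosome 19, 28258851 to 28680265, minus strand) had the largest change. It had 698 and 772 counts in cKO replicates 1 and 2, against 201 and 220 counts in control replicates 1 and 2. On the CPM scale it averaged 43.9 ± 2.5 in cKO libraries and 12.5 ± 0.63 in control libraries (SD, n = 2 each). The groups were far apart and each pair of libraries was close, differing by 8.56% in the cKO and 7.40% in the control group. The log2 fold change was 1.81 (SE 0.10), which placed Glis3 at rank 6, from the highest down, of 11103 genes averaging 5 CPM or more. Leaving out any 1 library kept the value between 1.75 and 1.87, and Glis3 remained called in each of those fits.

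Glis1 (chromosome 4, 107426636 to 107635061, plus strand) was near the limit of detection. Its counts were 24 and 41 in cKO replicates 1 and 2, against 10 and 18 in control replicates 1 and 2. The exact 95% Poisson intervals were 15.4 to 35.7 and 29.4 to 55.6 for the cKO libraries, and 4.80 to 18.4 and 10.7 to 28.4 for the controls. These intervals cover counting error only, and that of cKO replicate 1 overlaps both control intervals. The log2 fold change was 1.21 (SE 0.48), it ran from 0.80 to 1.68 when a library was left out, and Glis1 was not called in any fit that tested it. The higher cKO library, replicate 2, also had more Wnt1, a caudal midline signal, at 173 counts against 46 in cKO replicate 1. Pax7, of the same midbrain and caudal roof list, went the other way, at 243 counts against 417. The sums of that list were nearly level between the cKO libraries, at 54.0 and 55.6 CPM. Whether caudal tissue bears on Glis1 was not tested.

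Glis2 (chromosome 16, 4594320 to 4625141, plus strand) gave 63.8 and 61.3 CPM in cKO libraries, against 55.7 and 64.2 CPM in control libraries. The groups overlapped, and the spread between the controls, 15.4%, exceeded the gap between the group means. The log2 fold change was 0.06 (SE 0.08) and turned to -0.037 without control replicate 1. Exons of Glis2 share 455 of 4373 bases with Pam16 on the opposite strand, a gene of a mitochondrial import motor, and the counting used no strand option. Pam16 had 222 to 273 counts per library, far below the 928 to 1091 of Glis2.

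With Glis2 near level and Glis3 higher, the makeup of the Glis counts differed between groups. The shares and sum below are not corrected for exon length, which is 8842 bases for Glis3 and 4373 for Glis2. Per kilobase of exon, the ratio of Glis3 to Glis2 was 0.326 and 0.368 in cKO libraries, against 0.107 and 0.0997 in control libraries. Glis3 made up 39.2% and 41.7% of the CPM summed over the 3 Glis genes in cKO libraries, against 17.6% and 16.6% in control libraries. The sum itself was 108 ± 1.5 CPM in the cKO and 73.3 ± 7.0 CPM in the control group (SD, n = 2 each). Glis2 remained the most abundant of the 3 in every library.

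The pair Zic1 and Zic4 on chromosome 9 held the most abundant gene of the set and its head-to-head partner. Zic1 (91358058 to 91365768, minus strand), a marker of dorsal neural progenitors, had 6698 and 6816 counts in cKO libraries, against 6045 and 6116 counts in control libraries. These were 404 and 403 CPM in the cKO group, against 363 and 360 CPM in the control group. The libraries of a group differed by 0.117% and 0.731%, for cKO and control, so the small gap between groups, a log2 fold change of 0.16 (SE 0.04), is wider than either. Zic1 was not called, and its value stayed between 0.15 and 0.16 whichever library was left out.

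Zic4 (91365631 to 91389351, plus strand) gave 107 and 85.6 CPM in cKO replicates 1 and 2, against 77.1 and 70.3 CPM in control replicates 1 and 2. The cKO libraries differed from each other by 24.8%, a gap wider than that between cKO replicate 2 and either control. The log2 fold change was 0.38 (SE 0.11) and Zic4 was not called. It was called without cKO replicate 2, at a log2 fold change of 0.54. Without cKO replicate 1 the value was 0.22 and Zic4 was not called. Of the cKO libraries, replicate 1 had the higher neural crest and head mesenchyme sum, 1074 against 685 CPM. Of the controls, replicate 2 had the higher sum, 1174 against 1039 CPM, and the lower Zic4 level. Whether these sums bear on Zic4 was not tested. The ratio of Zic1 to Zic4 CPM was 3.78 and 4.71 in cKO libraries, against 4.70 and 5.12 in control libraries, so the higher cKO ratio just passed the lower control ratio. The spans of Zic1 and Zic4 overlap by 138 bases, with 60 exon bases in common on opposite strands, and reads there cannot be assigned to either gene.

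The pair Zic2 and Zic5 on chromosome 14 lies 9725 bases apart and is transcribed in opposite directions. Zic2 (122475384 to 122480328, plus strand), the holoprosencephaly gene, gave 156 and 157 CPM in cKO libraries, against 131 and 118 CPM in control libraries. The cKO libraries were nearly equal and both above the controls, with a log2 fold change of 0.33 (SE 0.06). Zic2 was called, and the call was lost without cKO replicate 1 or without cKO replicate 2, where the values were 0.34 and 0.33. It was kept without control replicate 1, at 0.41, and without control replicate 2, at 0.26.

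Zic5 (122459160 to 122465658, minus strand), which acts in neural crest and forebrain development, gave 34.2 and 33.3 CPM in cKO libraries, against 25.3 and 22.7 CPM in control libraries. The groups did not overlap, and the log2 fold change of 0.50 (SE 0.10) was the largest of the Zic genes. Its call was lost in each of the 4 fits that left out a library, with values from 0.42 to 0.58. The ratio of Zic2 to Zic5 CPM was 4.57 and 4.72 in cKO libraries, against 5.17 and 5.23 in control libraries, so Zic5 was higher by more than its partner in both. The difference in response between the partners was not tested. Summed over the 4 Zic genes, the level was 690.2 ± 15 CPM in the cKO and 583 ± 17 CPM in the control group (SD, n = 2 each).

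In the authors' deposited table of the same libraries, Glis3, Zic2 and Zic4 had an adjusted p under 0.05, and Zic5 lay just above it. The log2 fold changes in the authors' deposited table were 1.81 for Glis3, 0.33 for Zic2, 0.38 for Zic4 and 0.49 for Zic5. Which of Zic4 and Zic5 counts as called thus differed between the 2 analyses, while their fold changes were close.

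**Figure D3:**
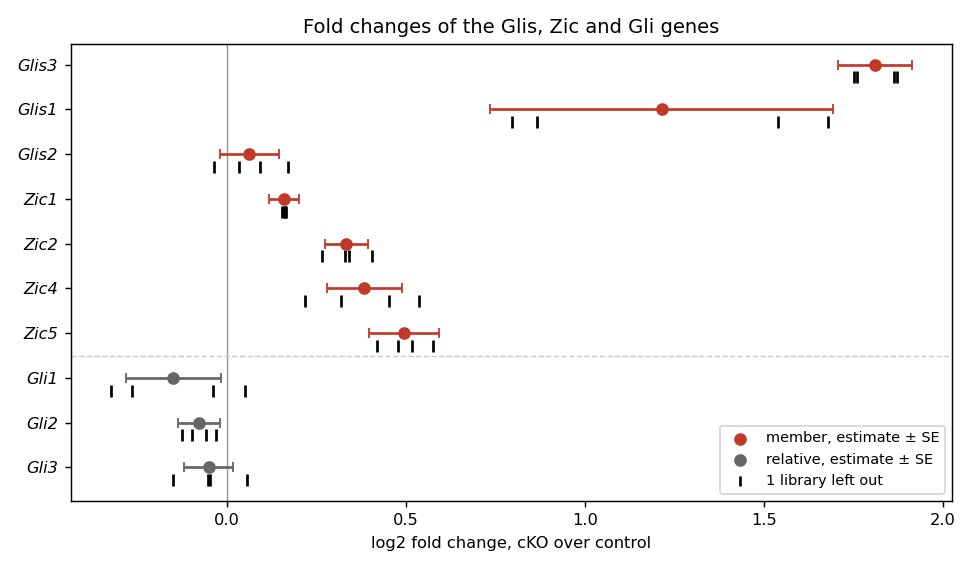
Log2 fold change of cKO over control for the 7 Glis and Zic genes (red) and the 3 Gli genes (grey), with the standard error as a bar; each short black tick is the value with 1 library left out. Glis3 lies at 1.81 with ticks from 1.75 to 1.87, Glis1 has the widest spread, and Glis2, Gli1 and Gli3 have ticks on both sides of 0.

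Levels of different genes were set side by side per kilobase of exon. In cKO libraries the order was Zic1 at 70.9 ± 0.058, Zic2 at 54.5 ± 0.25, Glis2 at 14.3 ± 0.40, Zic4 at 9.31 ± 1.5, Zic5 at 6.91 ± 0.13, Glis3 at 4.96 ± 0.29 and Glis1 at 0.531 ± 0.19 CPM per kilobase (SD, n = 2). In control libraries the order was the same, at 63.5 ± 0.33, 43.2 ± 3.0, 13.7 ± 1.4, 7.13 ± 0.47, 4.90 ± 0.38, 1.41 ± 0.071 and 0.228 ± 0.089 CPM per kilobase. The libraries of neighbouring genes in these orders did not overlap in either group. The place of Zic4 rests on the gene model. With the shorter exon set of the GENCODE basic annotation, Zic4 averaged 21.1 CPM per kilobase in the cKO group, above Glis2 at 17.3, and 16.2 in the control group, below Glis2 at 16.6. Averaged over the libraries, Zic1 lay above 95.8% and Glis3 above 35.3% of the 14116 tested genes with a length.

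Of the 3 Gli genes, whose zinc fingers are of the same kind, 0 were called by edgeR and 0 by DESeq2, and 0 had an unadjusted p under 0.05 in edgeR. Gli1, a direct target of Hedgehog signalling, had 40.9 and 47.9 CPM in cKO libraries, against 42.9 and 55.6 CPM in control libraries (log2 fold change -0.15, SE 0.13, edgeR adjusted p = 0.631). Gli2, the main activator, was at -0.08 (SE 0.06, adjusted p = 0.560) and Gli3, the main repressor, at -0.05 (SE 0.07, adjusted p = 0.762). The sign of Gli1 turned without control replicate 2 and that of Gli3 without control replicate 1.

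The nearest named protein-coding gene on each side of each member was also looked up, a rule added after the data were seen. Rfx3, a ciliary transcription factor gene 244 kb from Glis3, gave 139 and 136 CPM in cKO libraries, against 102 and 113 CPM in control libraries (log2 fold change 0.36, SE 0.06, edgeR adjusted p = 0.0286). Both cKO libraries lay above both controls, but Rfx3 was no longer called when control replicate 1 was left out (edgeR adjusted p = 0.0793). Nor was it called after leaving out cKO replicate 1, at an edgeR adjusted p of 0.103, or cKO replicate 2, at 0.112. On its other side, 155 kb away, the glutamate transporter gene Slc1a1 had 1 to 19 counts and was not tested. Beside the Zic2 and Zic5 pair, the metabolic enzyme genes Pcca (log2 fold change 0.09, SE 0.10, edgeR adjusted p = 0.726) and Clybl (0.16, SE 0.12, edgeR adjusted p = 0.553) were not called. Tbc1d2b, the neighbour of Zic1 at a distance of 1087 kb, was at 0.21 (SE 0.10, edgeR adjusted p = 0.313). Beside Glis1 and Glis2, the genes Ndc1, Dmrtb1, Tfap4 and Pam16 had log2 fold changes from -0.65 to 0.13 and were not called.

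The 3 genes with the most similar course over the 4 libraries were found for each member by the Euclidean distance of centred log2 CPM, among genes averaging 5 CPM or more. With 4 libraries in 2 groups this likeness mostly restates the fold change. For Glis3 they were Tcerg1l (distance 0.11), Sez6l (0.18) and Thbs4 (0.21). For Glis1 they were the homeobox genes Irx2 (0.15) and Irx1 (0.19) and the gene Shisal1 (0.20), all highest in cKO replicate 2. Irx2 had 28.5 and 46.4 CPM in cKO libraries, against 14.0 and 19.8 CPM in control libraries. For Zic5 they were Mdga1, Ndn and Bambi, a BMP pseudoreceptor gene, at distances of 0.05 to 0.06. For Zic2 they were Gpr27, Ammecr1 and Taf4b, at 0.04 to 0.05, and for Zic4 they were Gatm, Setd4 and Ppp1r13b, all at 0.07. Zic1 and Glis2, whose profiles were nearly flat, had neighbours at about 0.01, which were Bphl, Palb2 and Saysd1 for Zic1 and Ilvbl, Acad8 and Nme4 for Glis2.

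Genes that act with these factors were described from 5 lists. Of 8 genes for partners and regulators of GLI, GLIS and ZIC proteins, 0 were called in either direction by edgeR or by DESeq2, and 0 had an unadjusted p under 0.05. Their median log2 fold change was -0.02, against -0.00028 for all genes tested. Sufu, which binds GLI proteins and GLIS3 and restrains them, was at 0.07 (SE 0.05, edgeR adjusted p = 0.561). Mdfi, whose product I-mfa binds ZIC proteins, gave 485 and 441 counts in cKO libraries, against 264 and 437 counts in control libraries. Its groups differed only through the low control replicate 1 (log2 fold change 0.41, SE 0.21, edgeR adjusted p = 0.363), and without control replicate 2 it was called, at 0.80. Its relative Mdfic was at -0.28 (SE 0.16, edgeR adjusted p = 0.423).

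The roof plate and dorsal midline, where Zic genes are known to be expressed, gave another picture. Of 16 tested genes in this list 7 rose and 0 fell in the cKO, with a median log2 fold change of 0.76. By DESeq2 10 rose and 0 fell, and 0 genes on the lower side had an unadjusted p under 0.05 in edgeR. Bmp7, a BMP ligand, rose by 1.36 (SE 0.11, edgeR adjusted p = 0.00185), and Rspo1, a Wnt signal enhancer, by 1.05 (SE 0.10, edgeR adjusted p = 0.00375). Lmx1a, a LIM-homeobox gene that specifies the roof plate, had 600 and 844 counts in cKO libraries, against 296 and 235 counts in control libraries (log2 fold change 1.45, SE 0.18, edgeR adjusted p = 0.00799). Bmp4, another BMP ligand, had 611 and 506 counts in cKO libraries, against 276 and 281 counts in control libraries (1.01, SE 0.13, edgeR adjusted p = 0.00812). In both genes the groups lay far apart. The other called genes were Wnt3a (1.10), Wnt8b (0.85) and Bmp6 (0.67). In bulk tissue, more cells of a type and more RNA per cell cannot be told apart. The list was chosen with earlier results of these data known, so its count is no independent support for the Zic values.

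The cortical primordium, which borders the dorsal midline, went the other way. Of 12 tested genes 7 fell and 0 rose, by edgeR and by DESeq2, with a median log2 fold change of -0.94. On the higher side, 0 genes had an unadjusted p under 0.05. Pax6 fell by 1.03 on the log2 scale (SE 0.05, edgeR adjusted p = 0.000342), Nr2f1, a nuclear receptor of cortical area patterning, by 1.30 (SE 0.09, adjusted p = 0.00113) and Nr2e1, a nuclear receptor of neural stem cells, by 0.81 (SE 0.10, adjusted p = 0.00812). The midline-near gene Dmrt3 had 484 and 446 counts in cKO libraries, against 474 and 414 counts in control libraries, and was not called (0.07, SE 0.11, edgeR adjusted p = 0.809). The count of genes that fell was 4 without cKO replicate 2.

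The remaining lists cover disorders tied to the members. Of 13 tested holoprosencephaly genes other than Zic2, 1 rose and 0 fell, with a median log2 fold change of 0.07. By DESeq2 3 rose and 1 fell, and in edgeR 4 genes on the higher side and 3 on the lower had an unadjusted p under 0.05. The gene that rose was Fgf8, an anterior midline signal, with 402 and 332 counts in cKO libraries, against 86 and 180 counts in control libraries (1.47, SE 0.29, edgeR adjusted p = 0.0417). Fgf8 was no longer called after leaving out cKO replicate 1, at a log2 fold change of 1.32 and an edgeR adjusted p of 0.114, or after leaving out cKO replicate 2, at 1.62 and 0.0820. With either control left out it was called, at 1.05 without control replicate 1 and 2.09 when control replicate 2 was the one omitted. Shh itself varied within the groups, with 41 and 686 counts in cKO libraries, against 113 and 387 counts in control libraries. Of 8 nephronophthisis genes, the disease group of GLIS2, 0 were called in either direction by edgeR and 0 by DESeq2, and 1 had an unadjusted p under 0.05 in edgeR. Their median was 0.03, and Nek8, which encodes a ciliary kinase, was not called (log2 fold change 0.36, SE 0.17, edgeR adjusted p = 0.327).

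**Figure D4:**
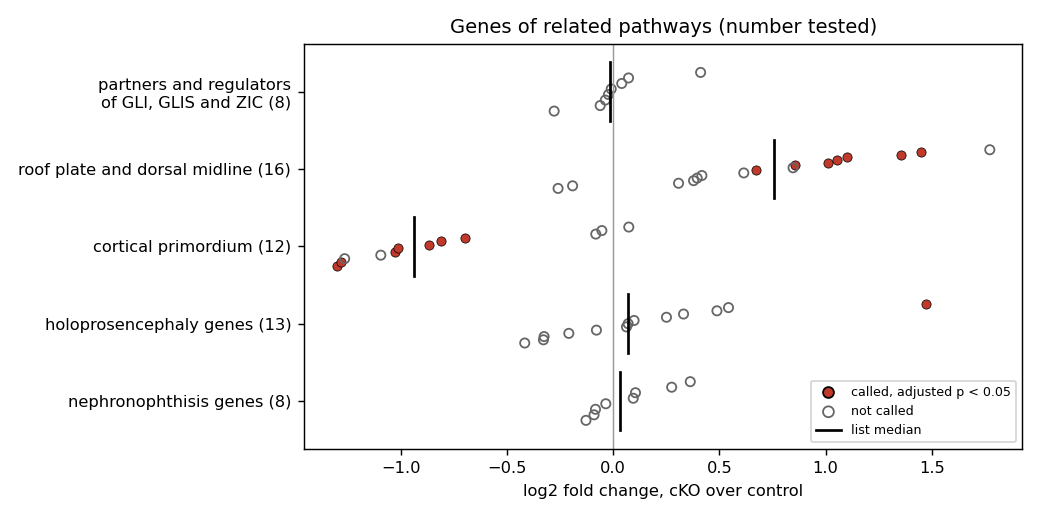
Log2 fold change of cKO over control for each tested gene of the 5 lists; filled red points were called at an adjusted p under 0.05, open points were not, and the black line is the list's median. The roof plate list lies mostly above 0 with a median of 0.76 and the cortical list mostly below with a median of -0.94, while the 3 lists of partners and disease genes have medians from -0.02 to 0.07.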

How the data were processed

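Per the labels, RNA was purified on columns and polyA libraries were made from 1 microgram of total RNA. The submitters' processing notes name HISAT2, featureCounts, DESeq2 and mm10. Per the file headers, the deposited counts came from featureCounts 2.0.1, run in paired mode on exons without a strand option and using RefSeq gene models for mm10; they are raw. The authors also deposited log2 fold changes, p-values and adjusted p-values, a Wald statistic (a score, not used) and normalized counts, a signal equal to the raw count over 1 factor per library (0.990 to 1.01). The column names of that table, and not a stated method, give these units.

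Genes were kept by filterByExpr (minimum count 10) and libraries scaled by TMM. The groups were compared in edgeR 4.0.16 (quasi-likelihood, no covariate, R 4.3.3), with Benjamini-Hochberg adjustment over all 14235 genes. An SE is the log2 fold change over the root of F. The common biological coefficient of variation was 0.0785. Replicates were distinct libraries (chi-square per degree of freedom 4.65 for the cKO and 5.53 for the control pair). The test was checked on simulated counts. The 7 genes and the lists were chosen with earlier results of these data known. Named besides them are at most 4 called genes from each list (the 2 of smallest p if none was called) and the 3 genes most alike to each member; neighbours were added after the data were seen. Some genes under this rule are not reported here. Exon lengths and overlaps are from GENCODE M21, gene spans and promoters from RefSeq GRCm38.p6, the assembly that mm10 names. Log2 CPM for likeness used a prior count of 2. Alternatives were other scalings and filters, DESeq2 1.42.0, limma-voom 3.58.1, a replicate block and each library left out. Unmatched sample columns in the tables numbered 0. Plots used matplotlib 3.10.9.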

Additional observations from a re-analysis of the deposited data

How the results depend on the processing

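Under other scalings, filters, DESeq2 and limma-voom, the fold changes of the 7 genes kept their direction wherever they were tested (Glis1 did not pass the filter of a mean of at least 5 CPM), and Glis3, Zic2 and Zic5 kept their calls. DESeq2 also called Zic4, and it called 3 holoprosencephaly genes higher and 1 lower. Leaving out a library gave 80 to 351 genes higher and 131 to 418 lower over all genes, and 1 to 2 of the Glis and Zic genes called higher. The counts in the lists then ran from 0 to 1 higher for partners and regulators, 0 to 1 lower for the roof plate (Rspo3), 4 to 9 lower for the cortical primordium, and 0 to 2 higher and 0 to 2 lower for the holoprosencephaly genes. The cause was not tested. The log2 fold change of Glis2 ran from -0.037 to 0.17, that of Gli1 from -0.32 to 0.050 and that of Gli3 from -0.15 to 0.056. In each such fit 1 group has a single library, taken to vary as much as the other group does.

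The replicate numbers mark no stated pairing, and the deviations of same-numbered libraries correlated at -0.05. With the replicate block 137 genes were higher, 1 of the 7 genes (Glis3) was called and 0 holoprosencephaly genes were higher. Fgf8 and Rfx3 were then not called either, at log2 fold changes of 1.52 and 0.36 (edgeR adjusted p = 0.0779 and 0.0577). With 2 libraries per group, an exact permutation test of 1 gene cannot go below p = 0.333. At 10 to 41 counts, depth limits the values of Glis1. The count table gives no gene lengths, so levels per kilobase could not be compared with the authors' own gene models.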
